A study of Mus musculus with 8 samples.

Results

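The Integrator complex is a large nuclear assembly that travels with RNA polymerase II. It cleaves the 3′ ends of the small nuclear RNAs of the spliceosome and of enhancer RNAs, and it ends transcription early at many protein-coding genes. Its subunits form modules: a backbone (INTS1, INTS2, INTS7), a cleavage module (INTS4 and INTS9 with the endonuclease INTS11), a module that holds protein phosphatase 2A (INTS6, beside the shoulder subunits INTS5 and INTS8), an arm that includes INTS10, and INTS3, which also belongs to a complex that binds single-stranded DNA. The genes described here are Ints1 to Ints10, taken by name from the rows of the deposited expression table, and all 10 were found among its 17597 genes.

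The RNA came from mouse embryonic stem (mES) cells of a Cast x 129S strain background. In these cells Xist is driven by a TetOn promoter, and METTL3, the catalytic subunit of the writer of N6-methyladenosine (m6A), carries an FKBP12 F36V degron tag. The 8 libraries comprise 4 from cells given dTAG-13 for 26 hours, which triggers degradation of the tagged protein, and 4 from cells without it. Both groups were made from the same pair of clones, C3 and H5, each sequenced as 2 replicates. All libraries share the degron, the TetOn allele, the absence of doxycycline and growth on fibroblast feeders. The labels place the TetOn promoter on the 129S allele, whereas the study's text places it on the Cast allele of the line from which these clones were made.

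One value per gene is used here, the authors' mean over the libraries of read counts scaled by size factors, called the mean count. It pools treated and untreated cells and carries no spread between libraries, so nothing below compares the groups and the response of these genes to METTL3 loss is not analysed here. The mean counts of genes added up to 14573411, and the depth of single libraries was not analysed here. All 10 stem cell markers examined lay above the median gene, from 464 counts per kb for Klf4 to 16142 for Dppa5a. Of 10 fibroblast markers, Vim (437 counts per kb) and Fn1 (423) were above the median gene. Acta2 (47.1) and Thy1 (38.7) were below it, and Col1a1, Col1a2, Col3a1, Postn, Lum and Dcn lay at 3.02 or below. The share of feeder RNA in the values of the Integrator genes was not tested. Mettl3 itself had a mean count of 684, or 135 per kb of exon, and its RNA does not report on the degraded protein.

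The Integrator subunits, all detected, lay above the median gene except Ints9. Together they held 15194 mean counts, 0.104% of the gene total (exact 95% binomial interval 0.103 to 0.106%, counting error only). By mean count the highest was Ints6 at 2499 and the lowest Ints9 at 363, a ratio of 6.88, with a median over the 10 genes of 1578 against 376 over all genes ranked. Genes were ranked where the mean count was at least 10 and an exonic length was known, which left 13455 genes. Longer transcripts yield more reads, so levels of different genes are compared below per kb of annotated exon, with every exon of a gene merged. Where another length or the mean count is used, it is named. The exons are those of GENCODE vM21, whereas the study's text takes its gene annotation from UCSC. Some bases of the merged exons may therefore not have been counted. Per kb of merged exon the median over the 10 genes was 193 counts, at the 69.8th percentile of genes ranked. Of the 10, 9 lay above the gene median of 81.3. In bulk RNA, fewer cells that express a gene and less RNA per cell cannot be told apart.

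**Figure D1:**
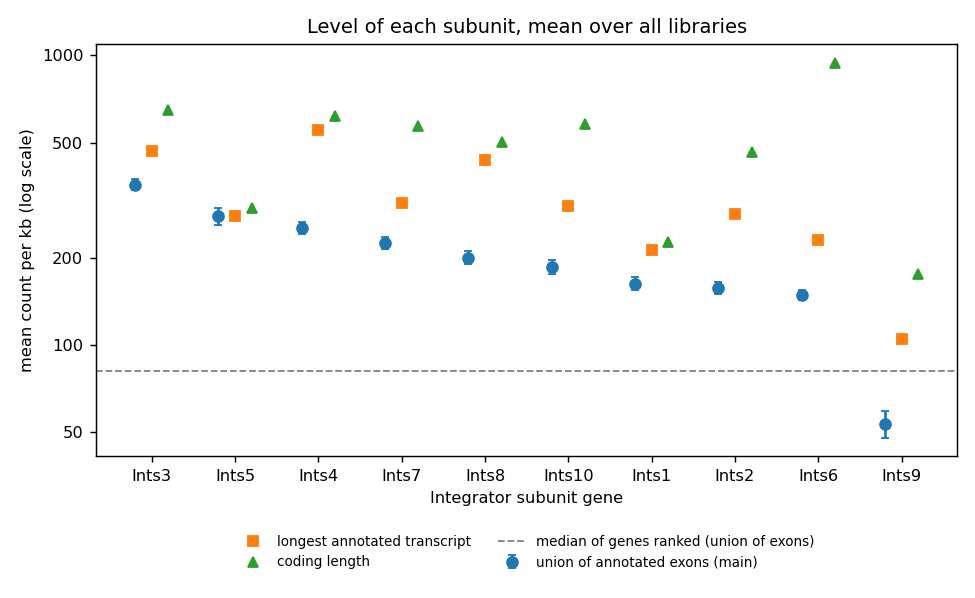
Level of each Integrator subunit gene on a log scale, in mean counts per kb, ordered by the level per kb of merged annotated exons (circles; bars are exact 95% binomial intervals that cover counting error only). Squares divide the same mean count by the longest annotated transcript and triangles by the coding length, and the dashed line marks the median of genes ranked at 81.3. Ints9 is lowest on all 3 scales, and Ints6 moves from second lowest to highest when only its coding length is used.

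In the order of level per kb of exon, Ints3 was highest at 358 counts per kb, and it was followed by Ints5 at 278, Ints4 at 254, Ints7 at 225, Ints8 at 200.4, Ints10 at 186, Ints1 at 163, Ints2 at 157, Ints6 at 149 and Ints9 at 53.3. Neighbours in this order were close, with ratios from 1.03 to 1.29 until the last step, where Ints6 exceeded Ints9 2.79-fold. Intervals for counting error overlapped in 4 of the 9 neighbouring pairs: Ints5 with Ints4, Ints8 with Ints10, Ints1 with Ints2, and Ints2 with Ints6. Those intervals treat the mean as the count of 1 library, so they are wider than the counting error of a mean over 8. The number of overlaps depends on that choice. The spread between libraries is not part of those intervals, so a difference between any neighbouring pair could not be tested. The SD of the log2 level per kb was 0.74 among these 10 genes and 2.52 among all genes ranked.

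The backbone genes lay close together per kb of merged exon but not of coding length. Ints1 (chromosome 5, 139751282 to 139775674, GRCm38, minus strand), which encodes the largest of these proteins by coding length, had a mean count of 1508 (counting interval 1433 to 1586) over 9270 bases of exon. Ints2 (chromosome 11, 86210681 to 86257575, minus strand) had a mean count of 1668 over 10609 bases, and Ints7 (chromosome 1, 191575636 to 191623688, plus strand) 1648 over 7319 bases. Per kb of exon these 3 genes spanned 157 to 225 counts, a ratio of 1.43. Per kb of coding length they spanned 226 for Ints1 to 568 for Ints7, a ratio of 2.51. The 47 exons of the Ints1 transcript are the most of the group, and at 61.1% its GC content lay at the 97.0th percentile of the 13029 coding genes ranked. The start of Ints7 lies 92 bases from that of Dtl, which is transcribed the other way and had a mean count of 1349. Ints9, of the cleavage module, has a like arrangement. Its start lies 174 bases from that of Hmbox1, which had a mean count of 208.

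The subunits of the cleavage module differed most. INTS9 and INTS11 are related proteins of the metallo-beta-lactamase fold that pair with each other, and INTS11 holds the active site. Ints9 (chromosome 14, 64950045 to 65039832, plus strand) had a mean count of 363 (counting interval 327 to 402), at the 49.4th percentile by mean count and the 40.9th per kb of exon. Ints11, listed under its older symbol Cpsf3l, had a mean count of 1617 and 527 counts per kb, the highest of the 15 numbered Integrator subunits per kb of merged exon. The ratio of Ints11 to Ints9 was 9.88 per kb of merged exon. Merged exons of Ints9 are 2.55 times as long as its coding transcript, and both of its other annotated transcripts are of the retained-intron type. Per kb of coding length the ratio was 5.09, and per kb of the coding transcript 5.02. Ints4 (chromosome 7, 97480956 to 97541395, plus strand), the scaffold that holds this pair, had a mean count of 1787 and 254 counts per kb. Thus Ints9 stood below both of its module partners on every length scale tried, by a margin that the choice of length set. Ranked only against genes of 100 or more mean counts, it was at percentile 20.2 per kb of merged exon. Cpsf2 and Cpsf3, the corresponding pair of the mRNA cleavage machinery, had 1036 and 372 counts per kb of merged exon. The values were 1036 and 786 by longest transcript, and 2527 and 955 by coding length.

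Among the genes next to the phosphatase, the order of Ints6 and Ints5 turned on the length used. Ints6 (chromosome 14, 62676330 to 62761169, minus strand), which links the phosphatase to the complex, had the highest mean count (2499, counting interval 2402 to 2599) but only 149 counts per kb. Its coding transcript of 10883 bases has 7777 bases of 3′ UTR, the 99.3rd percentile of coding genes. Per kb of coding length it was the highest of the group at 942 counts. Its X-linked paralogue Ints6l, listed as Ddx26b, had a mean count of 348 and 48.5 counts per kb, so Ints6 held the larger share of the pair. Ints8 (chromosome 4, 11199158 to 11254258, minus strand) had a mean count of 1498 and 200.4 counts per kb. Ints5 (chromosome 19, 8893005 to 8897888, plus strand) had a mean count of 911, the second lowest of the group but at the 71.2nd percentile of genes. It was second per kb of merged exon at 278, seventh by longest transcript and eighth by coding length. The 4 phosphatase 2A genes listed were higher than Ints5, Ints6 and Ints8 per kb of merged exon. Ppp2ca, its main catalytic subunit, had 773 counts per kb, and Ppp2r1a, its main scaffold, 926. Ppp2cb had 915, and Ppp2r1b, at 299, was close to Ints5. By coding length Ppp2r1b (924) lay below Ints6 (942), and the other phosphatase genes stayed above it.

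Of the remaining members, Ints10 (chromosome 8, 68793929 to 68831667, plus strand) had a mean count of 1282 and 186 counts per kb. Per kb of merged exon its arm partners Ints13 (listed as Asun) and Ints14 (listed as Vwa9) were near it at 225 and 213, whereas Ints15 (listed as E130309D02Rik) had 98.5. By coding length they were further apart, with Ints13 at 867, Ints10 at 580, Ints14 at 451 and Ints15 at 339. Ints3 (chromosome 3, 90391388 to 90433622, minus strand) had a mean count of 2031 (counting interval 1944 to 2121), the second highest after Ints6. Its single-stranded DNA binding partners were lower per kb of exon, with Nabp1 at 88.9, Nabp2 at 99.03 and Inip at 94.1. By coding length the direction turned for Nabp1 (1266) and Inip (1791), which lay above Ints3 (650), while Nabp2 (361) stayed below. The backbone-associated subunit Ints12 had 94.8 counts per kb.

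**Figure D2:**
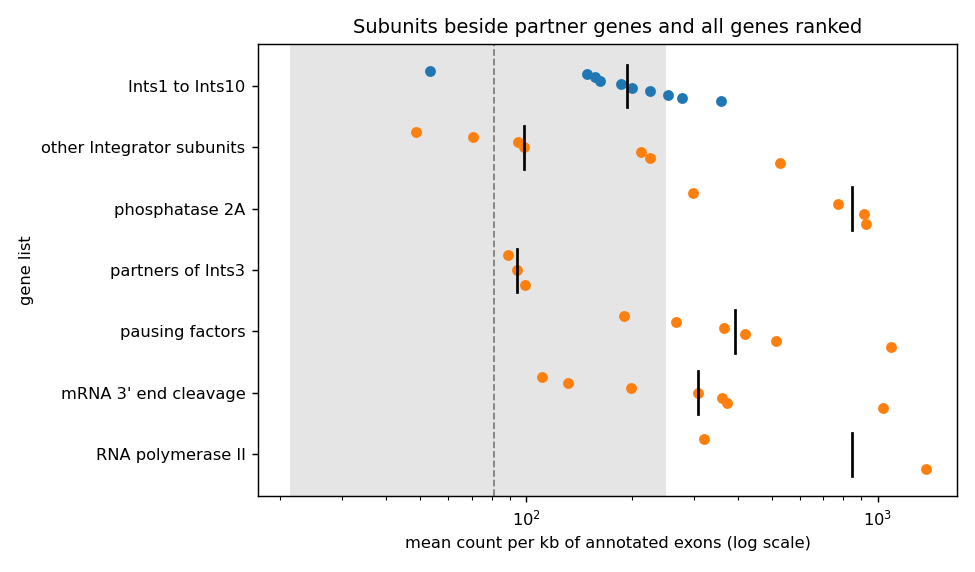
Mean count per kb of merged annotated exon on a log scale for Ints1 to Ints10 (blue) and for 6 lists of partner or related genes (orange), with 1 point per gene and a black bar at each list's median. The grey band spans the 25th to 75th percentile of genes ranked (21.3 to 251) and the dashed line their median, and the median of Ints1 to Ints10 (193) lies below those of the phosphatase, pausing, cleavage and polymerase lists and above those of the other Integrator genes and the partners of Ints3, the last of which turns by coding length.

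Set beside 6 lists of partner or related genes, Ints1 to Ints10 were lower at the median than 4 and higher than 2 per kb of merged exon. By coding length they were lower than 5 and higher than 1, since the partners of Ints3 then had a median of 1266 against 535. The 7 other genes of the Integrator list had a median of 98.5 counts per kb, from 48.5 for Ints6l to 527 for Ints11. The median was 844 for 4 phosphatase 2A genes, 392 for 6 genes of the pausing factors NELF and DSIF, 309 for 7 genes of mRNA 3′ end cleavage, and 94.1 for the 3 partners of Ints3. Polr2a and Polr2b, the 2 largest subunits of RNA polymerase II, had 321 and 1371. These lists are small, and the range of each overlaps that of Ints1 to Ints10. On that scale of merged exons the 3 partners of Ints3 all lie in the gap between Ints9 and Ints6.

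**Figure D3:**
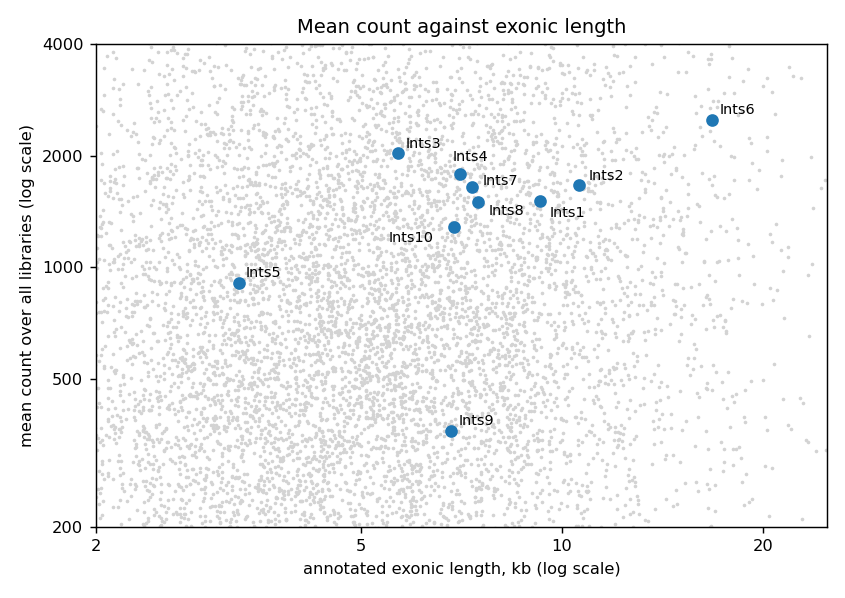
Mean count over all libraries against annotated exonic length, both on log scales, for Ints1 to Ints10 (labelled, blue) and for genes ranked that fall in the window shown (grey). Ints5 is the shortest and Ints6 the longest member, and Ints9 (363) lies below the other 9 at an exonic length close to those of Ints10 and Ints4.

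The genes of this group are long in merged exon, and their transcripts are much divided by introns. The median merged exonic length was 7179 bases against 4464 over the coding genes ranked, and 9 of the 10 exceeded that value. By length of the coding transcript they lay between the 42.6th percentile (Ints9) and the 98.4th (Ints6). The coding transcripts had a median of 5.30 exons per kb against 3.51, with 8 of 10 above. Ints8 was at the upper end with 8.16 exons per kb. Ints5 was at the other end, with only 2 exons, 0.61 per kb, and nearly all of its coding sequence in an exon of 3130 bases. Across the 10 genes, which share the same libraries, Spearman's rho between mean count and exonic length was 0.48, against 0.13 over the coding genes ranked. With coding length it was 0.24 across the 10 genes. So few genes fix a rho only loosely, and its difference from that of all genes was not tested.

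METTL3 methylates adenosines within a short consensus, of which GGACT (with U for T in the RNA) is a common form, and methylation is known to favour long exons and the region around the stop codon. These letters were searched on the sense strand of the coding transcript of each gene, and a match is a description of the sequence and not a methylated site. All 10 transcripts held at least 1 match, as did 91.8% of coding genes ranked. The density had a median of 1.14 matches per kb against 1.05 over coding genes, from 0.28 for Ints6 to 2.14 for Ints5. Of 50 matches in all, 38 lay in coding sequence, 8 in the 3′ UTR and 4 in the 5′ UTR. The coding share was 76.0%, where 63.8% of the bases of these transcripts code; over the coding genes ranked these shares were 57.1% and 52.9%.

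Of the 50 matches, 32 were in exons under 400 bases and 16 in a last exon. The shares of transcript bases in such exons were not computed, so no preference is read from these counts. Those in longer exons came mostly from Ints5, with all 7 of its matches in its long last exon, and Ints7, with 4 of 5 in a last exon of 2524 bases. Ints1, Ints3, Ints4 and Ints8 had none in the last exon. Within 400 bases of the stop codon lay 7 matches, in 5 genes, and the share of transcript bases there was not computed. Sequences are given for those 7 matches and for the 4 last-exon matches of Ints7. They do not cover every match in a long exon. Other last-exon matches of Ints5, Ints6 and Ints10, farther than 400 bases from the stop codon, are left out. Each sequence given is read 5′ to 3′ on the sense strand of GENCODE transcripts with 8 bases on either side, and capitals mark the match.

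Ints2, exon 23, 359 bases before the stop codon, chr11:86214913-86214933: tgttatggGGACTttgctaac
Ints2, exon 25, 41 bases after the start of the stop codon, chr11:86212581-86212601: ctgaatctGGACTttatgaga
Ints3, exon 29, 196 bases before the stop codon, chr3:90392320-90392340: gaatatgaGGACTcttccact
Ints5, exon 2, 145 bases before the stop codon, chr19:8897580-8897600: ttcatccgGGACTttgccagg
Ints5, exon 2, 5 bases before the stop codon, chr19:8897720-8897740: tcggcaggGGACTtgaccttt
Ints9, exon 17, 270 bases after the start of the stop codon, chr14:65039709-65039729: tgactctcGGACTtaccctcc
Ints10, exon 18, 112 bases before the stop codon, chr8:68827311-68827331: gtgaaggaGGACTtccgcctg
Ints7, exon 20, 796 bases after the start of the stop codon, chr1:191622250-191622270: actagtgtGGACTtctgatat
Ints7, exon 20, 1264 bases after, chr1:191622718-191622738: tcataagaGGACTtgactttt
Ints7, exon 20, 1323 bases after, chr1:191622777-191622797: caccccagGGACTgagaagtg
Ints7, exon 20, 1507 bases after, chr1:191622961-191622981: gcgtctggGGACTgatgccag

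The build is GRCm38, and Ints2 and Ints3 are read from the minus strand. In Ints5 the match that lies 5 bases before the stop codon runs directly into it. The 4 last-exon matches of Ints7 all lie in its 3′ UTR, and Ints6, whose 3′ UTR is the longest, held a single match there.

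**Figure D4:**
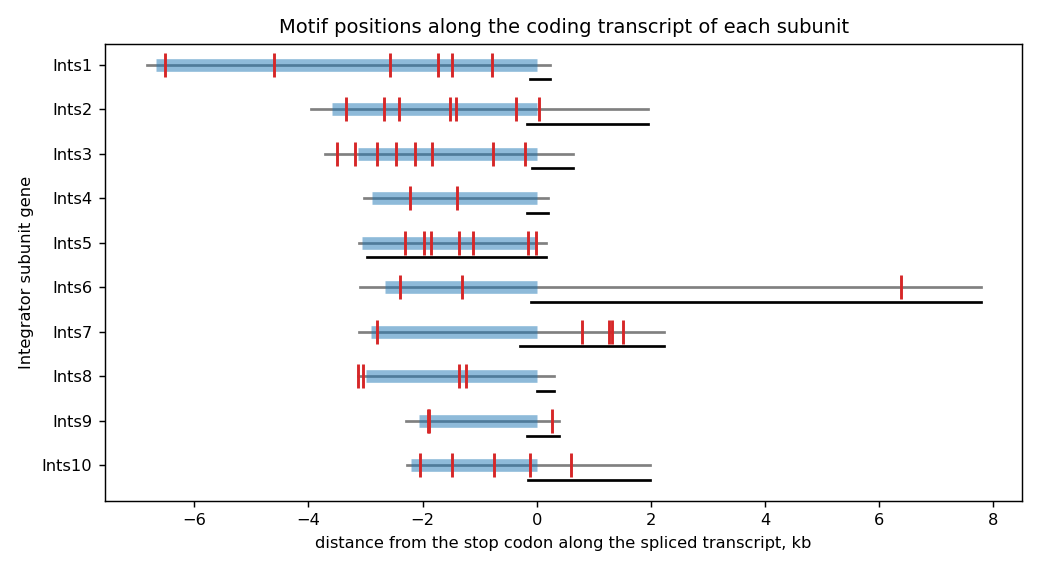
Coding transcript of each Integrator subunit gene drawn to scale as distance in kb from the stop codon at 0, with coding sequence as a blue bar, UTRs as a grey line, the last exon as a black line beneath and each motif match as a red tick. The 7 matches of Ints5 lie over its last exon, 4 of Ints7 lie in its 3′ UTR, and those of Ints1 and Ints4 lie in coding sequence upstream of the last exon.

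Some exons are shared with other genes. Overlaps on the opposite strand can bear on a count only where strand was not used in counting. Those on the same strand can bear on it either way. Ints8 shares 609 bases, 8.15% of its exonic length, with Ccne2 on the opposite strand, which encodes cyclin E2 and had a mean count of 804. Ints2 shares 4.83% of its exonic length with an antisense transcript, Brip1os, and Ints6 shares 2.07% with Serpine3, which had a mean count of 1.11. Ints5 shares 14.3% with Gm49416, a gene model on the same strand, and Ints1 shares 65 bases with Mir7037, also on the same strand. Gm49416, Mir7037 and Brip1os are not among the genes listed, so they have no mean count here. Whether the authors' annotation held them is not known, and an effect on the members was not tested. No exonic overlap with another gene was annotated for Ints3, Ints4, Ints7, Ints9 or Ints10.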

How the data were processed

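Members and gene lists were chosen with earlier results of these data known. Per the study's methods, the authors discarded ribosomal RNA reads (bowtie2), aligned read pairs to the N-masked mm10 genome (STAR), kept unique alignments, removed duplicates (Picard) and ran TEtranscripts with default parameters. The labels' extraction text describes chromatin RNA, but the molecule label and the study's methods give total RNA. The study's methods name default settings, under which the counter ignores strand, whereas the name of the deposited table carries the word for its reverse-stranded setting; which was used was not settled. The deposited signal used here is, by the definition of its column, the mean over all 8 libraries of counts divided by size factors. The table's other 5 columns hold the authors' own comparison (fold changes, errors, statistics and p-values) and were not used, so no test between groups was made. Gene symbols were matched to GENCODE vM21 on GRCm38: 16660 directly, 706 through older symbols, 98.7% in all. Mean counts were divided by merged exonic length in GENCODE, and percentiles count the genes with a lower value. The study's text names UCSC as the source of its gene annotation, so counts and lengths may rest on different annotations. The effect of this on the levels was not tested. Intervals are exact 95% binomial (Clopper-Pearson) intervals of the rounded mean count in the gene total; they treat the mean as 1 library and cover counting error only. The coding transcript is that with the longest coding part. The genes named are the members, the fixed lists, markers and genes that overlap or adjoin a member, the last of which were chosen from the annotation after the files were seen. Python 3.11.15, pandas 2.3.3 and scipy 1.17.1 were used. Merging and percentiles were each checked on a small made-up input with a known answer.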

Additional observations from a re-analysis of the deposited data

How the results depend on the processing

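No paired analysis was possible because the deposited mean pools all libraries; for the same reason no replicate could be left out. Levels depended on the length used. With the longest annotated transcript, coding length and the coding transcript (the last chosen after the data were seen), the order of the 10 genes had a Spearman rho of 0.73, 0.32 and 0.73 with the reported order, and the ratio of highest to lowest was 5.27, 5.35 and 4.06 in place of 6.71. The median percentile of 69.8 moved to 72.2 with the longest transcript and 66.0 with coding length, and to 76.6 over all genes of the table and 58.7 once genes below 100 counts were dropped. With transposable elements in the total, the group's share was 0.0933%. Counting GGACA and also GGACC beside GGACT gave a median of 3.48 matches per kb against 3.71 over coding genes, so the median lay below that of coding genes there and in the coding part alone (0.93 against 1.07), whereas GGACT over whole transcripts lay above. Ints9 was the lowest of the 10 genes with each length tried.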
